A study of Mus musculus with 6 samples.

Results

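A set of 9 receptor genes from 3 related cytokine systems was examined in whole mouse aorta: the interleukin 17 receptor chains Il17ra, Il17rc and Il17rd, the interleukin 6 (IL-6) family receptor chains Il6ra, Il6st, Il11ra1, Lifr and Osmr, and the interleukin 1 receptor Il1r1. They were taken by symbol from a table of 35275 genes, in which each of the 9 symbols had 1 row. The set was chosen by the FPKM values of these genes in the same comparison of genotypes, with Il17ra at its head, so the difference between genotypes in these 9 genes is given as a description and was not tested. The libraries comprised 3 from Wild-type aorta and 3 from EC-Jag1KO aorta, in which Jagged1, a ligand of Notch receptors, was deleted in mature endothelial cells. The labels give tissue and genotype but no Cre driver, age, strain or pooling of animals. Nothing in them ties each library to its own animal, so p-values measure only the spread between these samples, which may be technical.

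Interleukin 17A and 17F act through a receptor that joins the shared chain IL-17RA to IL-17RC. Both chains carry an intracellular SEFIR domain that recruits the adaptor Act1, which is encoded by Traf3ip2, and the pathway stabilises inflammatory mRNAs and activates NF-kB. IL-6 family cytokines first bind a ligand-specific chain (IL-6R, IL-11R, LIFR or OSMR) and then signal through gp130, the product of Il6st, to JAK kinases and STAT3. A soluble form of the IL-6 receptor lets cells that make gp130 but little of their own IL-6 receptor respond to IL-6, and vascular endothelium and smooth muscle are textbook examples. IL-1R1 pairs with the accessory chain encoded by Il1rap and signals through MyD88 and the IRAK kinases, and it shares many NF-kB targets with IL-17.

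The libraries held 19889910 to 25914325 reads in genes, as recovered from the deposited values. Smooth muscle markers dominated, with a summed level of 13902 to 14580 FPKM in Wild-type and 11552 to 13796 FPKM in EC-Jag1KO libraries (fragments per kilobase, a level set relative to gene length and library depth) over 6 genes, and all 8 endothelial markers were present in every library. Jag1 stood at 9.42 to 19.6 FPKM in the EC-Jag1KO libraries and 9.86 to 16.9 FPKM in the Wild-type libraries, over the whole gene and the whole tissue, so it does not check the deletion in endothelium. Replicate 3 of each genotype was female by Xist and Y-linked genes, and the other 4 libraries were male. EC-Jag1KO replicate 3 also stood apart in neutrophil markers, with a summed level of 72.4 FPKM over 7 genes against 0.623 to 10.3 FPKM in the other libraries. The fit between genotypes took in the 12165 genes averaging 1 FPKM or more. By limma, 0 of them had an adjusted p under 0.05 and 938 (7.71%) an unadjusted p under 0.05, 4.25% higher and 3.46% lower in EC-Jag1KO aorta. Voom on the recovered reads also gave 0 by adjusted p and 1008 by unadjusted p.

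Il17ra (ENSMUSG00000002897, plus strand of chromosome 6, 120463197 to 120483727 in mm10, protein coding) encodes the chain common to several IL-17 receptors. Its level was 3.45, 2.90 and 2.73 FPKM in Wild-type aorta and 6.56, 6.12 and 6.0 FPKM in EC-Jag1KO aorta. All 3 EC-Jag1KO libraries lay above all 3 Wild-type libraries, in the same contrast by which the set was chosen. The means were 3.03 ± 0.38 and 6.22 ± 0.29 FPKM (SD, n = 3 each), a ratio of 2.06. These levels rested on 279 to 324 reads in the Wild-type and 483 to 617 reads in the EC-Jag1KO libraries. The difference on the log2(FPKM + 1) scale was 0.85 with an SE of 0.11, the 138th largest of the 12165 genes in size. It was 0.87 without EC-Jag1KO replicate 3 and 0.82 without both female libraries. In tissue RNA, more cells of a type that makes the receptor and more RNA per cell cannot be told apart.

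Il17rc, whose product pairs with IL-17RA, was the more abundant chain in every library. It measured 21.3, 22.1 and 20.1 FPKM in Wild-type and 21, 19.8 and 18.2 FPKM in EC-Jag1KO aorta, and the groups overlapped. The log2 difference was -0.10 with an SE of 0.094. The ratio of Il17rc to Il17ra was 6.17, 7.61 and 7.36 in Wild-type aorta and 3.21, 3.23 and 3.03 in EC-Jag1KO aorta. Il17rc was therefore still over 3 times as high as Il17ra in every EC-Jag1KO library, on FPKM values that are scaled by gene length.

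Il17rd, also called Sef, is a SEFIR-domain receptor best known as an inhibitor of fibroblast growth factor signalling. It was the lowest of the 9 genes, at 2.04, 2.31 and 1.94 FPKM in Wild-type and 2.29, 1.86 and 3.26 FPKM in EC-Jag1KO aorta. EC-Jag1KO replicate 3 held the highest value, while the other EC-Jag1KO libraries lay within or below the Wild-type range. The log2 difference was 0.15 with an SE of 0.17, and it was -0.011 without EC-Jag1KO replicate 3.

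Il6ra (ENSMUSG00000027947, minus strand of chromosome 3, 89869324 to 89913162 in mm10, protein coding) encodes the ligand-binding IL-6 receptor. Its level was 4.72, 3.01 and 3.88 FPKM in Wild-type aorta and 6.01, 6.68 and 7.45 FPKM in EC-Jag1KO aorta. The EC-Jag1KO libraries again lay above all Wild-type libraries, with EC-Jag1KO replicate 3 the highest. The means were 3.87 ± 0.86 and 6.71 ± 0.72 FPKM (SD, n = 3 each), a ratio of 1.73, on 253 to 645 reads per library. The log2 difference was 0.67 with an SE of 0.15, and it was 0.61 without EC-Jag1KO replicate 3 and 0.54 without Wild-type replicate 2.

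Il17ra and Il6ra were the 2 of 9 genes whose groups did not overlap, both higher in EC-Jag1KO aorta, and 0 lay below. Among all 12165 tested genes 6.84% lay above in this way and 6.73% below, and since the set was chosen with this contrast in view nothing is read from the count. All 9 genes passed the filter on low values. Their median log2 difference was 0.0021, beside -0.00022 over all tested genes, with 5 genes higher and 4 lower by mean.

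**Figure D1:**
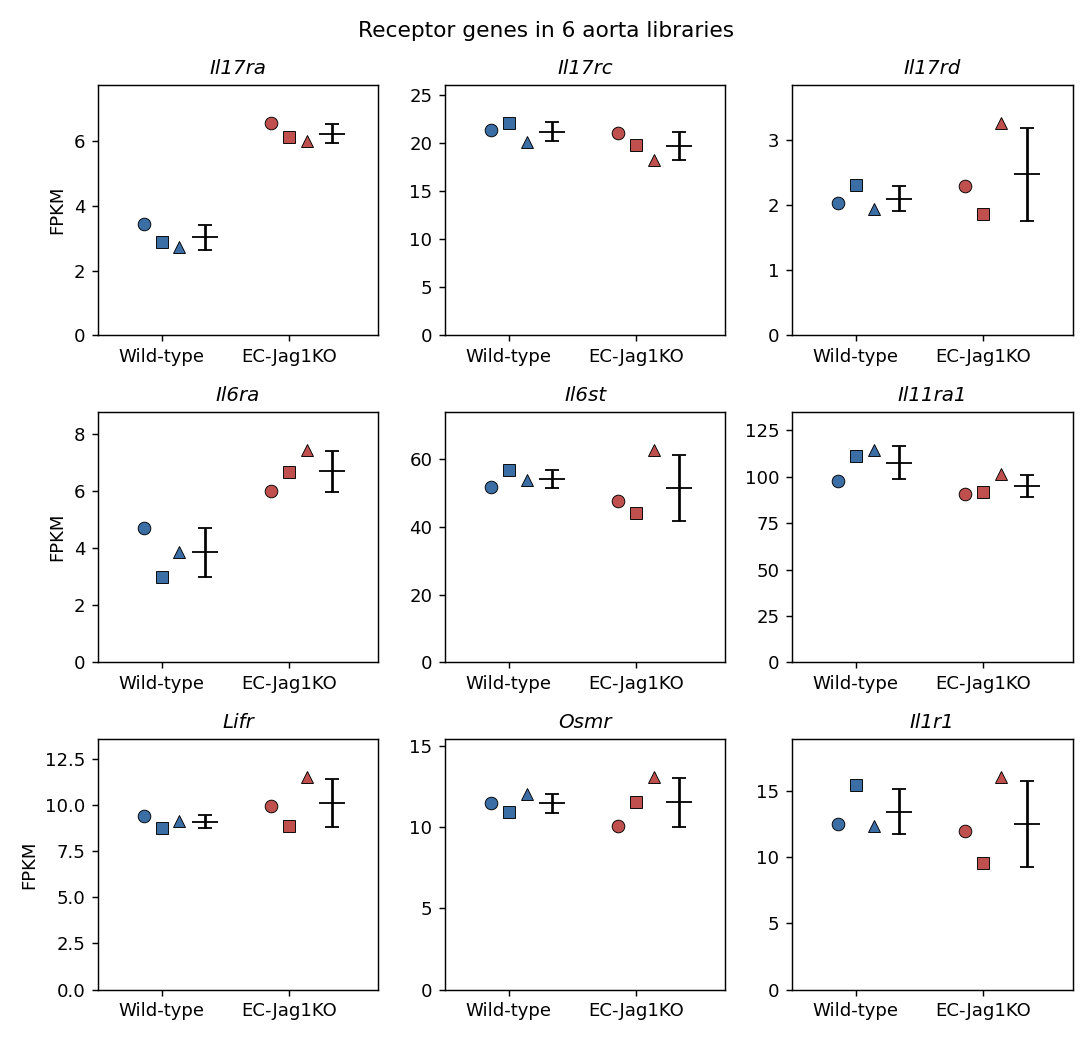
FPKM of each of the 9 receptor genes in each library, Wild-type in blue and EC-Jag1KO in red, with circles, squares and triangles for replicates 1, 2 and 3 and with the mean and SD of 3 libraries beside the points. For Il17ra (2.73 to 3.45 against 6.0 to 6.56) and Il6ra (3.01 to 4.72 against 6.01 to 7.45) the groups are apart, and for the other 7 genes they overlap.

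The bases before the annotated start of Il6ra are shown because Il6ra is the gene with separate groups for which a promoter entry was matched. RefSeq entries (GRCm38.p6) matched 8 of the 9 genes, in 11 entries, and Il17ra was not matched. The 250 bases before each start were searched on both strands for 8 short motifs. The Il6ra window is chr3:89913197-89913446 on the minus strand, written 5′ to 3′, with capitals for the letters GTGGGAA, the core recognised by RBPJ, the DNA-binding partner of Notch.
Il6ra: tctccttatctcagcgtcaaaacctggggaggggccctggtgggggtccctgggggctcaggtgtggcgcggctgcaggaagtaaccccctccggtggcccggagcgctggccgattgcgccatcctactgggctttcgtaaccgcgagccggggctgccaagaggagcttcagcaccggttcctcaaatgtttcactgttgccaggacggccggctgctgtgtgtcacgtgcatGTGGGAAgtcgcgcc

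The GTGGGAA match in Il6ra begins 15 bases before the start, and 1 of the 11 receptor entries held it, as did 5.42% of all 32851 windows of the same length. The E-box CACGTG begins 24 bases before the Il6ra start, does not overlap the first match, and occurs in 6.02% of all windows. The STAT motif TTCNNNGAA (7.02% of all windows), the AP-1 motif TGANTCA (6.75%), the NF-kappaB consensus (0.14%), the C/EBP sequence TTGCGCAA (0.164%) and the SRF consensus (0.0609%) were not in these 11 windows. The GC box GGGCGG was in 6 of the 11 entries, 1 each of Il11ra1, Il17rd, Il1r1, Il6st, Lifr and Osmr, and in 32.7% of all windows. These are matches of letters in a fixed window and carry no measure of binding.

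Il6st, which encodes the shared signalling chain gp130, was abundant. It stood at 51.5, 56.6 and 53.7 FPKM in Wild-type and 47.5, 44.1 and 62.4 FPKM in EC-Jag1KO aorta. The EC-Jag1KO libraries bracketed the Wild-type range, with the male libraries below it and the female library above it. The log2 difference was -0.085 with an SE of 0.14, and it was 0.015 without EC-Jag1KO replicate 2. The ratio of Il6st to Il6ra was 10.9, 18.8 and 13.9 in Wild-type aorta and 7.91, 6.60 and 8.38 in EC-Jag1KO aorta. By FPKM over the gene models used, the shared chain thus exceeded the IL-6 binding chain more than 6-fold in every library. The model of Il6ra leaves out part of its annotated 3′ end, as given below, and that of Il6st does not.

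Il11ra1, the binding chain for IL-11, was the highest of the 9 genes. Its level was 97.5, 111 and 114 FPKM in Wild-type aorta and 90.8, 92.0 and 102 FPKM in EC-Jag1KO aorta, so the highest EC-Jag1KO value lay above the lowest Wild-type value. The log2 difference was -0.18 with an SE of 0.11. In mm10 the annotated span of Il11ra1 (chromosome 4, 41699989 to 41769474) overlaps other genes, among them Dctn3, Galt, Rpp25l, Arid3c and Ccl27a, and reads may be shared between them since the strand setting is not given. The near-identical gene Il11ra2 was listed at 0 in all 6 libraries, and how reads that match both were assigned is not known, so the level of Il11ra1 is uncertain. The ratio of Il6st to Il11ra1 was 0.470 to 0.528 in Wild-type and 0.479 to 0.613 in EC-Jag1KO libraries.

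**Figure D2:**
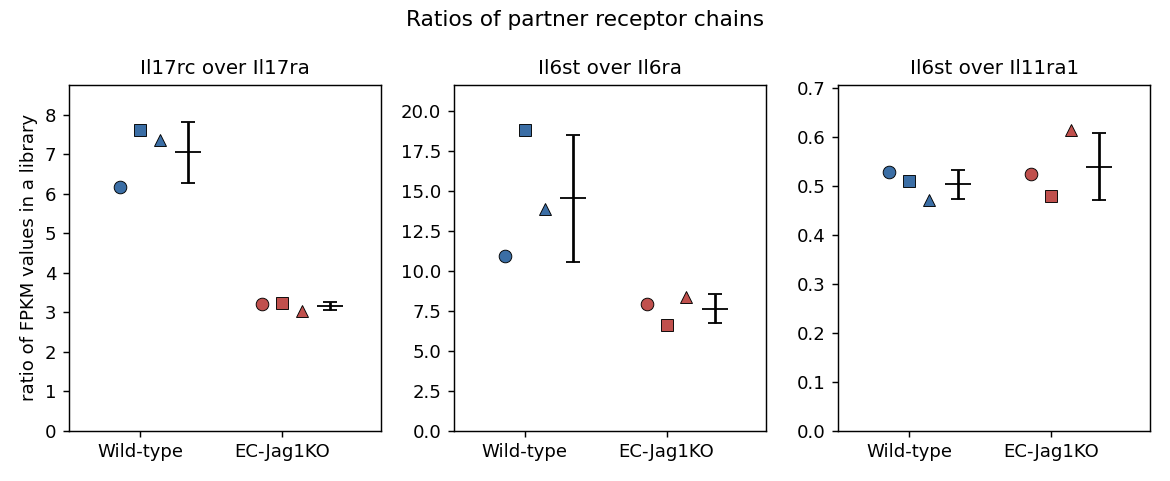
Ratio of the FPKM values of partner chains within each library, for Il17rc over Il17ra, Il6st over Il6ra and Il6st over Il11ra1, with colours and symbols as in the plot of FPKM by library and with the mean and SD of 3 libraries per genotype. The first ratio was 7.05 ± 0.77 in Wild-type and 3.16 ± 0.11 in EC-Jag1KO, the second 14.5 ± 4.0 and 7.63 ± 0.92, and the third overlapped between genotypes.

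Lifr and Osmr encode the chains that join gp130 to bind leukemia inhibitory factor and oncostatin M, and they lie on chromosome 15 within the same stretch (6813577 to 6874969 for Osmr and 7129559 to 7197489 for Lifr in mm10). Lifr stood at 9.41, 8.73 and 9.09 FPKM in Wild-type and 9.95, 8.85 and 11.5 FPKM in EC-Jag1KO aorta. Osmr stood at 11.5, 10.9 and 12.1 FPKM in Wild-type and 10.0, 11.5 and 13.1 FPKM in EC-Jag1KO aorta. Both genes overlapped between genotypes and were highest in EC-Jag1KO replicate 3. The log2 differences were 0.13 (SE 0.11) for Lifr and 0.0021 (SE 0.11) for Osmr, and that of Lifr was 0.044 without EC-Jag1KO replicate 3.

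Il1r1, the signalling receptor for IL-1, stood at 12.5, 15.4 and 12.3 FPKM in Wild-type and 11.9, 9.51 and 16 FPKM in EC-Jag1KO aorta. It had the widest spread of the 9 genes on the log scale, with a residual SD of 0.27, and the EC-Jag1KO libraries lay on both sides of the Wild-type range. The log2 difference was -0.12 with an SE of 0.18, and it was 0.047 without EC-Jag1KO replicate 2. Of the 9 genes, 6 (Il17rd, Il6st, Il6ra, Lifr, Osmr and Il1r1) had their highest value in EC-Jag1KO replicate 3. The part of the sex of that library or of its neutrophil RNA in these values was not tested.

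The order of levels was the same in both genotypes by mean, from Il11ra1 through Il6st, Il17rc, Il1r1, Osmr, Lifr, Il6ra and Il17ra to Il17rd. In Wild-type aorta, Il6ra and Il17ra were the neighbours whose ranges overlapped (3.01 to 4.72 and 2.73 to 3.45 FPKM), and the other neighbouring pairs were apart. In EC-Jag1KO aorta the ranges of Il6ra and Il17ra overlapped again, as did those of Il1r1 and Osmr and those of Osmr and Lifr. Il17ra was 1.25 to 1.69 times Il17rd in Wild-type libraries and 1.84 to 3.29 times in EC-Jag1KO libraries.

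**Figure D3:**
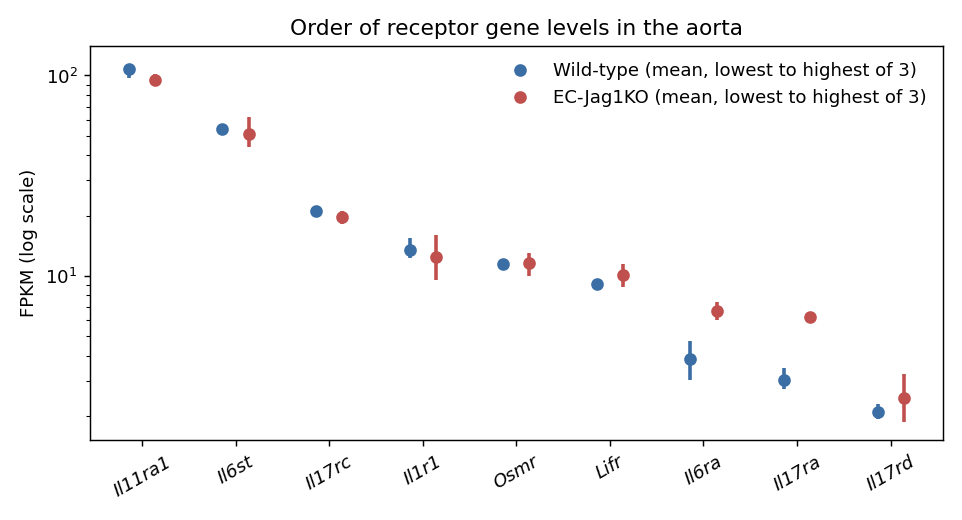
Mean FPKM (points) and lowest to highest value of 3 libraries (lines) for the 9 receptor genes on a logarithmic axis, Wild-type in blue and EC-Jag1KO in red, ordered by the Wild-type mean. Levels run from 108 FPKM for Il11ra1 to 2.10 FPKM for Il17rd in Wild-type, and the colours are clearly apart at Il6ra and Il17ra.

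The gene models in the table bear on these levels. In the GENCODE M21 annotation of the same build, Il17ra runs 3832 bases past the 3′ end that the table gives, and Il6ra runs 5265 bases past it. The table counted Il17ra over 3970 bases and Il6ra over 3343 bases, against 8662 and 8642 bases of merged exons in M21. Il1r1 also ran further in M21, by 1059 bases, and the 3′ ends of the other 6 genes were the same. Reads in those stretches do not enter the values, and the share of transcripts that use the longer ends was not measured. The ratios of other receptor genes to Il17ra and Il6ra carry this limit.

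Marker lists of other cell types were read beside Il17ra and Il6ra. The smooth muscle sum was lower in every EC-Jag1KO library than in every Wild-type library. Of the 6 markers 4 (Myh11, Tagln, Smtn and Lmod1) lay below in this way, while Acta2 and Cnn1 overlapped. For this and the later counts in these lists, the shares of all tested genes were 6.73% below and 6.84% above. Mesothelial markers were scarce but also separate, at a sum of 0.135 to 0.271 FPKM in Wild-type and 0.605 to 0.942 FPKM in EC-Jag1KO libraries over 4 genes, with Upk3b and Lrrn4 at 0 in some libraries. The 7 macrophage markers summed to 82.0 to 119 FPKM in Wild-type and 102 to 115 FPKM in EC-Jag1KO libraries, and 1 of the 7 (Cd68) lay above in all EC-Jag1KO libraries. Neutrophil markers were near 0 in EC-Jag1KO replicates 1 and 2 (summed 0.623 and 1.06 FPKM), in which Il17ra stood at 6.56 and 6.12 FPKM. The 7 T and B lymphocyte markers summed to 0.983 to 1.84 FPKM in Wild-type and 0.425 to 1.12 FPKM in EC-Jag1KO libraries. Of these 7 genes 3 lay below in all EC-Jag1KO libraries and 0 above, while Cd3e and Cd8a were highest in EC-Jag1KO replicate 3 (0.511 and 0.160 FPKM). Adipocyte markers ranged widely, from 267 to 1795 FPKM over 6 genes in Wild-type and from 790 to 1725 FPKM in EC-Jag1KO libraries. The lowest sum belonged to Wild-type replicate 2, which also had the lowest Il6ra. The highest belonged to Wild-type replicate 3, whose Il6ra (3.88 FPKM) was below that of Wild-type replicate 1 (4.72 FPKM). In EC-Jag1KO replicates 1, 2 and 3 the sums fell (1725, 1320 and 790 FPKM) while Il6ra rose (6.01, 6.68 and 7.45 FPKM). Fibroblast markers summed to 1116 to 1365 and 1224 to 1332 FPKM, with overlapping sums. Of the 6 genes 2 (Pdgfra and Lum) lay above in all EC-Jag1KO libraries, 0 lay below, and Dcn, Dpt, Pi16 and Col1a1 overlapped. The part of these cell types in the levels of Il17ra and Il6ra was not tested.

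Of the ligands listed for these cytokine families, Il17a, Il17f, Il6, Il11, Osm and Cntf had few or no reads in the aorta, while others were measured well. The lists also hold ligands of receptors outside the set, such as Il33. Il17a had 0 reads in all 6 libraries, where 3 reads correspond to 0.0989 to 0.129 FPKM, and Il17f had 1 read in 1 library. Il17b and Il17d, less studied members of the family, were measured at 8.56 ± 2.09 against 10.3 ± 4.1 FPKM and 5.74 ± 0.42 against 5.82 ± 1.28 FPKM (Wild-type against EC-Jag1KO, SD, n = 3 each). The groups overlapped for both genes. Il6 had 0 reads in the Wild-type libraries and 0, 3 and 8 reads in EC-Jag1KO replicates 1, 2 and 3. Il11 had 1 to 6 reads per library, Osm had 2 to 10, and Cntf had 0 in 4 of 6 libraries. Lif was at 0.650 ± 0.079 against 0.471 ± 0.0999 FPKM, below the filter. Ctf1 (cardiotrophin 1) and Clcf1, which act through LIFR and gp130, were the best measured direct ligands of the IL-6 family, at 5.74 ± 0.73 against 5.36 ± 0.94 FPKM and 3.41 ± 0.16 against 3.33 ± 0.88 FPKM. Il1a, Il1b and the antagonist Il1rn each stayed under 0.5 FPKM in every library, while Il33 stood at 11.3 ± 0.4 against 12.2 ± 1.9 FPKM and Il18 at 3.50 ± 1.86 against 2.81 ± 1.46 FPKM.

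Of the other receptor chains, Il17rb and Il17re were measured at 0.235 and 0.197 FPKM in Wild-type and 0.240 and 0.0493 FPKM in EC-Jag1KO libraries by mean, below the filter. Cntfr, the binding chain for ciliary neurotrophic factor, stood at 3.82 ± 0.70 against 4.90 ± 2.53 FPKM, with its highest value, 7.79 FPKM, in EC-Jag1KO replicate 2. Il27ra stood at 1.42 ± 0.45 against 1.19 ± 0.47 FPKM. Il1rap, the chain that IL-1R1 needs to signal, was at 1.59 ± 0.16 against 1.79 ± 0.11 FPKM. Sigirr, an inhibitory member of the IL-1 receptor family, was at 1.96 ± 0.83 against 1.81 ± 0.33 FPKM. The decoy receptor Il1r2 had 0 to 5 reads per library, and the IL-33 receptor Il1rl1 was at 0.327 ± 0.164 against 0.292 ± 0.114 FPKM.

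Downstream genes were taken from lists of the IL-17, IL-6 family and IL-1 family pathways with the 9 receptors left out, and here the fit between genotypes applies. Of 115 listed genes 83 passed the filter, and 0 of the 83 passed limma's test adjusted over all genes. With array weights, which gave EC-Jag1KO replicate 1 a weight of 14.7 and the other libraries 0.259 to 1.61, 10 IL-17, 5 IL-6 family and 3 IL-1 family pathway genes passed, beside 1647 of all tested genes. At an unadjusted p under 0.05 there were 13 of 83 (15.7%, beside 7.71% of all tested genes), 10 higher and 3 lower in EC-Jag1KO aorta. In 17 of 83 (20.5%, beside 13.6% of all tested genes) the groups did not overlap, 11 above and 6 below. The lists were chosen with results of these libraries known, so these shares are no independent evidence. The median log2 difference was 0.028 over the 83 genes.

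Of the transducers of IL-17, Traf3ip2 and Traf6 stood at 5.21 ± 0.40 against 4.82 ± 0.34 FPKM and 5.83 ± 0.25 against 6.44 ± 1.64 FPKM, within the spread. Chuk, which encodes the kinase IKK-alpha, stood at 9.87 ± 0.60 against 11.9 ± 0.7 FPKM with separate groups (limma adjusted p = 0.609), and Traf4 at 3.17 ± 0.75 against 4.76 ± 1.0 FPKM with overlapping groups (adjusted p = 0.625). Of 21 tested transducers 2 had an unadjusted p under 0.05 (9.52%, beside 7.71% of all tested genes), both higher. By groups that did not overlap, 1 (Chuk) lay above and 2 (Ikbkb and Traf5) lay below. Together these were 14.3% of the 21, near the 13.6% of all tested genes. Ikbkb stood at 18.2 ± 0.4 against 15.3 ± 1.8 FPKM (limma adjusted p = 0.654) and Traf5 at 13.7 ± 0.5 against 12.5 ± 1.1 FPKM (adjusted p = 0.803). The feedback inhibitors of NF-kB and of IL-17 targets gave 2 of 4 at an unadjusted p under 0.05 (50%, beside 7.71% of all tested genes). Nfkbia, the NF-kB inhibitor that NF-kB itself induces, was at 52.1, 49.3 and 52.4 FPKM in Wild-type and 78.6, 91.3 and 62.9 FPKM in EC-Jag1KO libraries, all of which lay above (log2 difference 0.57, SE 0.14, limma adjusted p = 0.402). Rc3h1, the RNA-decay factor roquin-1, stood at 4.39 ± 0.16 against 5.72 ± 0.49 FPKM (adjusted p = 0.524). Tnfaip3, the A20 inhibitor, stood at 1.43 ± 0.21 against 1.72 ± 0.16 FPKM with overlapping groups.

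Of 10 tested IL-17 target genes, Cebpd and Ptgs2 lay higher and Mmp3 lower at an unadjusted p under 0.05 (30%, beside 7.71% of all tested genes). Cebpd, a transcription factor gene that both IL-17 and STAT3 induce, was at 69.1, 55.6 and 70.3 FPKM in Wild-type and 109, 99.2 and 82.6 FPKM in EC-Jag1KO libraries, with separate groups (log2 difference 0.57, SE 0.14, limma adjusted p = 0.402). Ptgs2, the inducible cyclooxygenase, stood at 4.65 ± 0.86 against 6.99 ± 1.20 FPKM (adjusted p = 0.520). Mmp3, a matrix protease induced by IL-17 and IL-1 in fibroblasts, was at 38.5, 64.4 and 38.7 FPKM in Wild-type and 18.7, 21.3 and 15.8 FPKM in EC-Jag1KO libraries, with separate groups (log2 difference -1.27, SE 0.21, limma adjusted p = 0.259). The other 7 tested targets had an unadjusted p above 0.05. Among them, Nfkbiz was at 5.14 ± 1.0 against 5.34 ± 1.04 FPKM, and the chemokine Cxcl1 at 1.74 ± 0.26 against 1.71 ± 0.42 FPKM. Lcn2 was at 1.14, 0.0290 and 0.0849 FPKM in Wild-type and 0.399, 1.43 and 4.44 FPKM in EC-Jag1KO libraries, highest in the replicate with the neutrophil markers. S100a8 and S100a9, which neutrophils carry, reached 28.8 and 35.5 FPKM in that same library and at most 3.99 and 3.83 FPKM elsewhere.

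Among IL-6 family transducers, Stat3 stood at 29.0 ± 0.9 against 28.9 ± 2.6 FPKM and Jak2 at 14.4 ± 0.5 against 14.6 ± 3.6 FPKM. Jak1 stood at 25.8, 26.3 and 25.9 FPKM in Wild-type and 28.1, 26.3 and 32.1 FPKM in EC-Jag1KO libraries, a narrow separation (log2 difference 0.14, limma adjusted p = 0.796). Tyk2 was lower, at 10.6 ± 1.1 against 8.48 ± 0.31 FPKM with separate groups (log2 difference -0.29, limma adjusted p = 0.585). Ptpn2, the phosphatase that acts on JAK1 and STAT proteins, was at 9.79 ± 0.37 against 12.2 ± 0.7 FPKM (adjusted p = 0.524), and Pias3, a STAT3 inhibitor, at 21.6 ± 1.4 against 18.7 ± 1.8 FPKM (adjusted p = 0.708). Socs3, the feedback inhibitor that binds gp130 and the most direct transcriptional target of STAT3 in the list, stood at 4.91 ± 0.63 against 4.23 ± 0.67 FPKM, within the spread.

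Of 16 tested IL-6 family target genes 3 had an unadjusted p under 0.05 (18.8%, beside 7.71% of all tested genes), all higher. As for the other lists, this share is no independent evidence. Lbp, an acute-phase gene for lipopolysaccharide binding protein, was at 7.83, 4.37 and 5.21 FPKM in Wild-type and 13.4, 12.2 and 9.06 FPKM in EC-Jag1KO libraries (log2 difference 0.90, SE 0.21, limma adjusted p = 0.402). Myc was at 1.59 ± 0.24 against 3.06 ± 0.67 FPKM with separate groups (adjusted p = 0.402), and Cebpd was the third gene. Timp1, an IL-6 family target in fibroblasts, stood at 11.3 ± 1.6 against 12.1 ± 1.8 FPKM, within the spread. In the IL-1 pathway, Myd88 stood at 8.4 ± 1.33 against 8.78 ± 0.78 FPKM, and Peli1, an E3 ligase of the IRAK complex, at 15.0 ± 0.8 against 21.6 ± 6.2 FPKM with separate groups (limma adjusted p = 0.623). Irak3, the inhibitory member of the IRAK family, stood at 4.21 ± 0.54 against 5.42 ± 0.77 FPKM with separate groups (adjusted p = 0.654). Of 7 tested IL-1 family transducers Peli1 had an unadjusted p under 0.05 (14.3%, beside 7.71% of all tested genes).

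**Figure D4:**
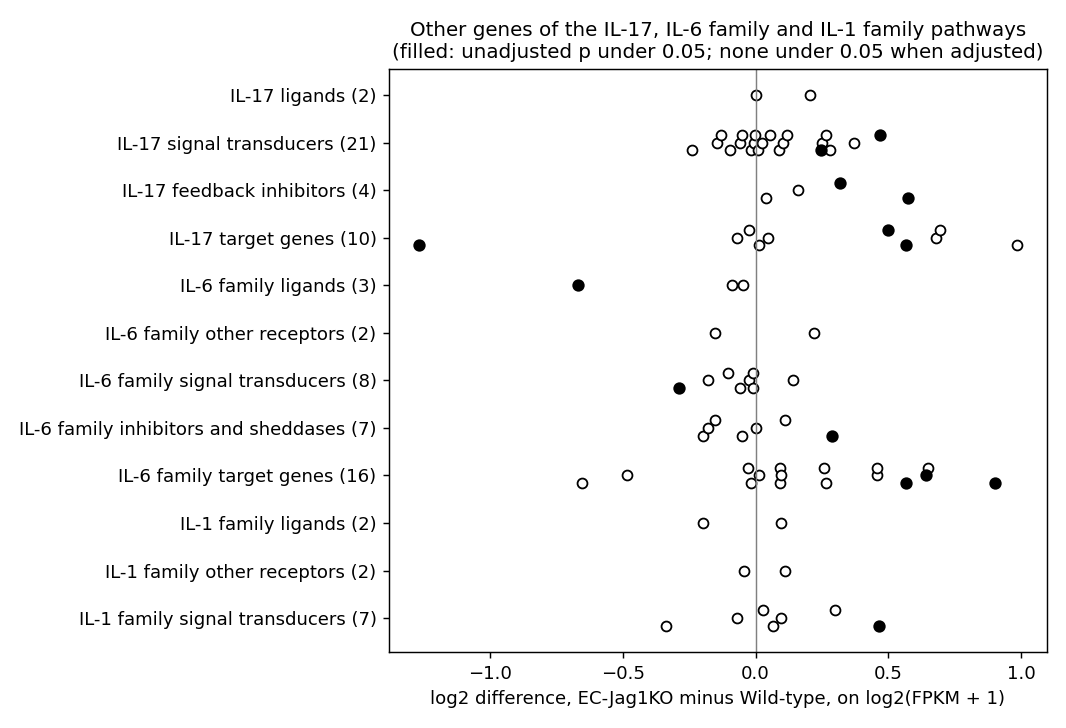
Log2 difference between genotypes on log2(FPKM + 1) for each tested gene of the pathway lists (number tested in brackets), with the 9 receptors left out and Cebpd shown in both of its lists. Filled points have an unadjusted p under 0.05, and they run from -1.27 (Mmp3) to 0.90 (Lbp), with 0 genes past the adjusted threshold.

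The genes most like Il17ra over the 6 libraries were ranked by Pearson's r of log2(FPKM + 1) among 11100 named protein-coding genes. The closest were Ctsb (cathepsin B, r = 0.993), Ccnt2 (0.992), Nkap (0.988), Zfp62 (0.987) and Tmod1 (0.986), and 35 genes had an r of at least 0.95. Ctsb stood at 191, 180 and 181 FPKM in Wild-type and 218, 211 and 213 FPKM in EC-Jag1KO libraries, so replicate 1 was the highest of its genotype, as for Il17ra, while the log2 difference was 0.22. The genes with the most opposite pattern were Ppp2r1a (r = -0.993), Abr (-0.993), Crtc2 (-0.987), Bcam (-0.986) and Npnt (-0.982). All of these values rest on the same 6 libraries and mostly on the gap between genotypes. With each gene centred within its genotype, the closest were Zfp112, Tmem198b, Pno1, Nnat and Zfp606 (r = 0.980 to 0.993), which differ from the first 5. Among the receptors themselves, Il6ra had the highest r with Il17ra over the 6 libraries (0.912), and this was 0.380 within genotypes. Il11ra1, whose level is uncertain, had the lowest r with Il17ra among the other receptors, -0.827 over the 6 libraries and -0.913 within genotypes. The values within genotypes rest on 3 libraries each, and none of these r was tested.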

How the data were processed

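RNA of 6 aorta samples was extracted with a spin-column kit, per the labels' protocols. The authors deposited 1 table of FPKM values, per the file headers, with gene length and coordinates. STAR, HTSeq and edgeR and the build mm10 are named in the submitters' processing notes without role, and for the annotation release, strand setting and filters the sources used here give nothing. Whole reads were recovered from FPKM and gene length (211645 of 211650 values within 0.05 of a whole number) and used for depth and 1 alternative. The analysis used log2(FPKM + 1), which understates the fold change of low genes. The 12165 genes averaging 1 FPKM or more entered limma 3.58.1 (R 4.3.3). The model held genotype alone, with a trend of variance on level, two-sided tests and Benjamini-Hochberg adjustment. The fit was tested on simulated data. Of 173 listed genes 172 were matched, 1 of them through its identifier. The receptors and lists were chosen with earlier results of these data known. Pathway genes were named by role whatever their values, or as the 2 of smallest p in a list, and genes like Il17ra as the 5 highest and 5 lowest by r. Ikbkb, Traf5, Ptgs2, S100a8 and S100a9 were named after their values were seen. Some genes that the rule names are not reported here. Python 3.11.15 and matplotlib 3.10.9 made the plots. Alternatives covered the pseudocount, the filter, scaling, variance model, library weights, the replicate number, sex, voom and each library left out.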

Additional observations from a re-analysis of the deposited data

Results flagged for a closer look

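For Il6st and Il1r1, both male EC-Jag1KO libraries lay below both male Wild-type libraries, while the female EC-Jag1KO library lay above the female Wild-type library. The log2 difference of Il6st was -0.23 in the male and 0.21 in the female libraries, 0.45 apart. That of Il1r1 was -0.35 in the male and 0.35 in the female libraries, 0.70 apart. Every library of a sex moving one way and the other sex moving the opposite way was seen in 22.6% of all tested genes. The mean differences also had opposite signs for Il17rd (-0.047 in male and 0.53 in female libraries) and Osmr (-0.050 and 0.11), but their male libraries overlapped between genotypes. No test of the difference between the sexes is given for these genes, since each genotype had 1 female library and the same values chose the genes. The female EC-Jag1KO library is the one with the neutrophil markers, and sex and the other features of that library cannot be told apart.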

How the results depend on the processing

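The log2 difference of Il17ra was positive in all 16 alternatives that gave a value, but such a count says little. No filter, no intensity trend, the replicate block and sex as a term left it at 0.85. These alternatives change only the SE and cannot change the sign of any of the 9 genes. For Il17ra and Il6ra the groups do not overlap, so leaving out a library could not change the sign either. The difference of Il17ra was 1.02 with a pseudocount of 0.1, 1.05 with voom on recovered reads, and 0.79 to 0.92 with each library left out. With a minimum mean of 5 FPKM neither Il17ra nor Il17rd was fitted. Il6ra stayed positive in 17 of 17 alternatives (0.49 with array weights to 0.82 with voom). Lifr, Il17rc and Il11ra1 also kept their sign, while Il17rd, Il6st, Il1r1 and Osmr changed sign in 2, 1, 1 and 7 alternatives.

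The count of all genes past the adjusted threshold was 0 in limma and 1647 with array weights, which put a weight of 14.7 on EC-Jag1KO replicate 1. It was 1 with sex as a term (RP24-479J14.1), 2 without both female libraries (Gm10020 and Gm6472), and 0 to 4 with each library left out, the 4 arising without EC-Jag1KO replicate 1 (Gm14287, Gm12191, Rpl3-ps1 and Eif3s6-ps2). These genes were named after their values were seen. With array weights, 10 IL-17 pathway, 5 IL-6 family and 3 IL-1 family genes passed, among them Nfkbia, Cebpd, Mmp3 and Lbp, and the pathway counts were 0 in the other alternatives. By unadjusted p under 0.05, 938 genes became 1436 without a filter, 612 with a minimum mean of 5 FPKM, 4215 with array weights, and 594 (without EC-Jag1KO replicate 1) to 1437 (without EC-Jag1KO replicate 2) with each library left out, with 601 without Wild-type replicate 2. With the replicate number as a block the counts were 0 and 842, and the count past the adjusted threshold did not move. The labels do not say what the numbers mark, and same-numbered libraries did not deviate together (r = 0.055, 0.051 and -0.050). The ligands with few reads were not measurable more finely at this depth.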
